A study of Mus musculus with 28 samples.

Results

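Embryoid bodies that carry the K754R substitution of Elongin A were compared with wild-type embryoid bodies, across all genes. Embryoid bodies are the aggregates that mouse embryonic stem cells form when they are left to differentiate. The comparison held 4 of the 28 libraries of the series, 2 labelled EloAK754R and 2 labelled wild type, found by their titles and by the names of their data columns. All 4 came from the CJ7 stem cell line and were collected on day 5 after withdrawal of LIF, the cytokine that keeps stem cells undifferentiated. K754R replaces a lysine of Elongin A with arginine. The stem cells had grown on feeder fibroblasts in serum with LIF and the inhibitors PD0325901 and CHIR99021, and fibroblasts had been depleted by plating. The labels call the mutant cells edited. They do not say how many clones were used, whether both alleles carry the change, or whether the 2 libraries of a genotype are separate cultures. Every p-value below therefore measures the spread between libraries, which may be technical. The EloAK754M (lysine to methionine) and Eed null embryoid bodies of the same line, 2 libraries each, are given beside the results.

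Elongin A is the large subunit of Elongin, a factor that raises the rate at which RNA polymerase II elongates transcripts and that also serves in a ubiquitin ligase. PRC2 is the complex that methylates histone H3 at lysine 27, and Eed is one of its core subunits. The title of the series names Elongin A as a PRC2 substrate, so the comparison asks which RNA levels differ when this lysine is replaced. During the first days of embryoid body formation, pluripotency genes are shut off while genes of the primitive streak, then of mesoderm and endoderm, are switched on.

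Of 37583 genes in the table, 19300 reached 0.25 RPKM (read count divided by transcript length and library depth) in at least 2 of the 8 CJ7 embryoid body libraries and were tested. In K754R, 931 genes rose (4.82% of those tested) and 937 fell (4.85%), at a Benjamini-Hochberg adjusted limma p below 0.05, so 9.68% of tested genes were called. The change was at least 2-fold in 349 of the rises (1.81% of tested genes) and 475 of the falls (2.46%). Falls were made by 8 of 14 core pluripotency, 11 of 26 primitive streak and 18 of 34 interferon and antigen presentation genes. Rises were made by 12 of 28 extracellular matrix, 9 of 27 cardiac, 6 of 26 blood and endothelium and 13 of 48 imprinted genes. In bulk RNA, fewer cells of a type and less RNA per cell cannot be told apart. The counts leaned on each single library: 177 genes were called without K754R replicate 1, 214 without K754R replicate 2, 264 without wild-type replicate 2 and 1249 without wild-type replicate 1. In all 4 of these fits 52 genes were called higher (0.269%) and 83 lower (0.43%). The libraries of K754R and wild type did not overlap at 57.2% of tested genes. Below, a call is said to have held when it was made in each of these 4 fits.

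Library depth, estimated from the RPKM that 1 read gives, was about 28700000 and 32000000 reads in K754R and 31500000 and 32000000 reads in wild type. The RNA of the Elongin A gene, listed as Tceb3, was 10.1 and 11.6 RPKM in wild type and 8.46 and 8.44 in K754R (log2 change -0.34 ± 0.16, adjusted p = 0.223). A level of RNA does not show a substitution, so it does not check the label. The other 5 tested members of the Elongin complex list did not pass either. The day 5 label fitted the markers in part: Kdr, a receptor of early mesoderm, was at 20.5 and 22.5 RPKM in wild type and 25.6 and 37.8 in K754R, and Sox17, an endoderm factor, at 13.5 and 14.99 in wild type and 15.9 and 18.97 in K754R. The neural factor Pax6 was at most 0.0678 RPKM in these 4 libraries.

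Genes of chromosomes 11 and 14 moved as blocks. The median log2 change over 1592 tested genes of chromosome 11 was -0.31 and over 623 of chromosome 14 it was 0.34, against 0.01 over all genes. The per-library medians against the wild-type mean were -0.36 and -0.25 for chromosome 11 and 0.29 and 0.39 for chromosome 14. Chromosome 11 held 229 of the 937 falls (24.4%) with 8.25% of the tested genes. Chromosome 14 held 109 of the 931 rises (11.7%) with 3.23% of the tested genes. K754M embryoid bodies had a median of -0.35 on chromosome 11 and 0.03 on chromosome 14, and K754R stem cells had -0.34 and 0.29. With the genes of both chromosomes left out, 732 genes were called higher and 639 lower. With each autosome centred on its own median in each library, 741 were called higher and 729 lower. The part of the block shifts in single-gene results was not tested. Of 251 named genes, some of which were not called in the main fit, 45 lost their call after centring. Among genes given here these included Coil, Dlx3, Etv4, Hoxb1 and Zrsr1 on chromosome 11 and Gata4 and Wnt5a on chromosome 14. They also included Apoa4, Bmp5, Dcn, Ddx3y, Eed, Eno1, Esam, Gdf3, Impact, Nes, Pla2g10, Smad2 and Smad3 on other chromosomes. The adjusted limma p-values of this last group ran from 0.0549 to 0.117. Others, such as Cldn7 and Krt17 on chromosome 11 (0.209 and 0.190), are not taken up below.

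**Figure D1:**
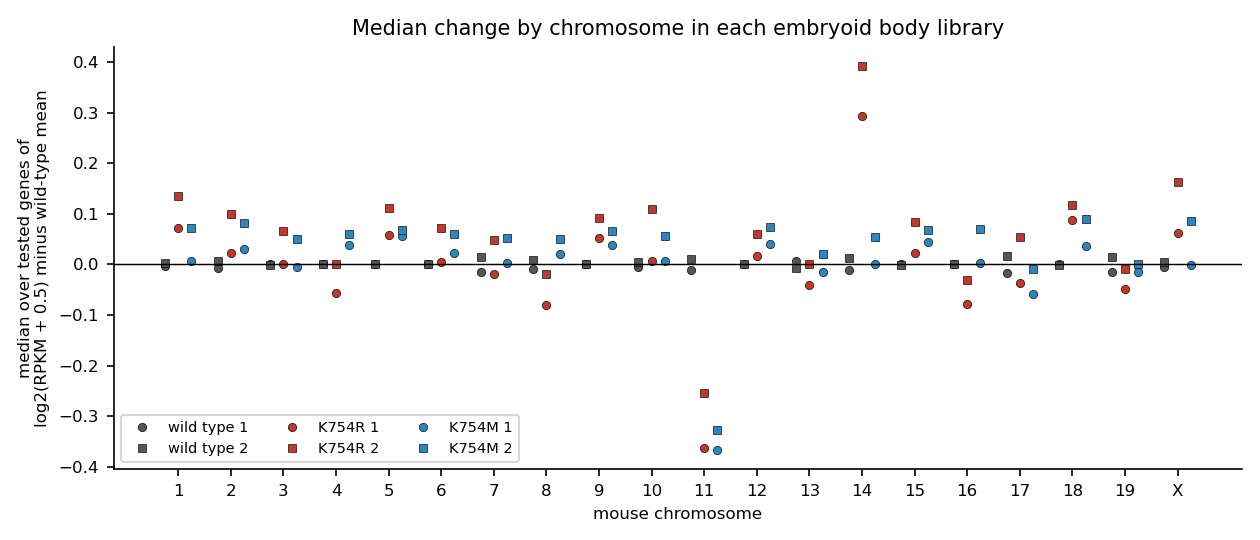
Median over tested genes of log2(RPKM + 0.5) minus the wild-type mean, by chromosome, for each wild-type, K754R and K754M embryoid body library (circles replicate 1, squares replicate 2). The K754R points of chromosome 11 lie at -0.36 and -0.25 and those of chromosome 14 at 0.29 and 0.39.

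Sequences are shown for the 2 groups of falls in which sequence can be set beside expression, the interferon-induced genes and the Mir302 cluster. The promoter windows are the 250 bases before the start of Gbp2 (chr3:142620413-142620662, plus strand), Igtp (chr11:58199306-58199555, plus strand) and Isg15 (chr4:156200819-156201068, minus strand), written along each gene's strand from RefSeq for GRCm38.p6. Capitals mark matches to the core of the interferon-stimulated response element, which is GAAA, 2 bases of any kind and GAAA again, searched on both strands with overlaps allowed.
Gbp2: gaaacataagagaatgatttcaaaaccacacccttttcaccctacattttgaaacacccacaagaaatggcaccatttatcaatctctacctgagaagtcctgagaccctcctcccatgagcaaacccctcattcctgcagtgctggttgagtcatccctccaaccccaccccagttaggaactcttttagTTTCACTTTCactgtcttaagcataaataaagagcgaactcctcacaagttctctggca
Igtp: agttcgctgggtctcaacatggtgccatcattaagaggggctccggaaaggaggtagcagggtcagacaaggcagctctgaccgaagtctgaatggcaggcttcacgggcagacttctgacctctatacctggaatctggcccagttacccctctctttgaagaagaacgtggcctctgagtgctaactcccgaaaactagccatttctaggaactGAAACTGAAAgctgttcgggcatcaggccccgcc
Isg15: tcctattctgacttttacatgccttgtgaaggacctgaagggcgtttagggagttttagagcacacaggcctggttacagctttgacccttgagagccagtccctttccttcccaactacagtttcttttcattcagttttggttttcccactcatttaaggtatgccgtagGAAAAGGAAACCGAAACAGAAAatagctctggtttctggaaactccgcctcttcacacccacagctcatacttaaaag
The match began at -59 in Gbp2, on the reverse strand, and at -34 in Igtp, with -1 the base before the start. In Isg15, 3 overlapping matches made 1 run. Of 13432 windows of tested genes 2.40% held the motif, and of all 32851 RefSeq windows 2.98% did. Among windows of interferon and antigen presentation genes that fell it was in 8 of 19 (42.1%), and among those of all tested members of that list in 14 of 33 (42.4%). The windows of the falling genes Psmb8 and Psmb10 held no match, which says only that these letters are not in them.

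Many interferon-induced and antigen presentation genes fell, and Gbp1 and Gbp2 had the largest fitted falls of all called genes. Interferons switch on GTPases that attack intracellular parasites, sensors of viral RNA, and the proteasome subunits and MHC molecules that present peptides. Of 34 tested genes of this list, 18 fell and 1 rose, with a median log2 change of -0.73. Without K754R replicate 1, K754R replicate 2, wild-type replicate 1 or wild-type replicate 2, 12, 13, 15 or 14 genes fell, and 12 held.

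Gbp2, a guanylate-binding GTPase, was at 16.8 and 22.5 RPKM in wild type and 0.597 and 0.536 in K754R. Both K754R libraries were far below both wild-type libraries (log2 change -4.23 ± 0.23, adjusted p = 0.000555). Its neighbours in the family moved with it: Gbp1 went from 15.7 and 20.6 to 0.396 and 0.333 (-4.42 ± 0.21, adjusted p = 0.000468) and Gbp3 from 4.23 and 4.17 to 0.176 and 0.148 (-2.83 ± 0.19, adjusted p = 0.00116). Reads of these closely related copies may have been split between them. Gbp4, another member of the family, rose, from 1.82 and 1.32 to 3.49 and 3.63 RPKM (0.98 ± 0.17, adjusted p = 0.018), a call made in only 1 of the 4 leave-out fits.

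The immunity-related GTPase Igtp was at 3.71 and 5.36 RPKM in wild type and 0.253 and 0.313 in K754R (-2.67 ± 0.21, centred -2.36, adjusted p = 0.00184). Isg15, a ubiquitin-like modifier, was at 2.27 and 2.02 in wild type and 0.138 and 0.0414 in K754R (-2.17 ± 0.23, adjusted p = 0.0047). Parp9, an interferon-induced ADP-ribosyltransferase outside the list, was at 7.31 and 8.96 in wild type and 0.7796 and 0.769 in K754R (-2.75 ± 0.19, adjusted p = 0.00122). The genotypes did not overlap for any of them. The transcription factor Irf1, which drives many of these genes, fell from 17.03 and 22.4 to 5.28 and 5.58 (-1.76 ± 0.15, centred -1.45, adjusted p = 0.00257). Stat2, Irf7 and Irf9, a transducer and factors of the pathway, did not pass, with log2 changes of 0.39, 0.37 and 0.41. Ifit1, Ifit2 and Ifit3 did not pass either.

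In antigen presentation, the immunoproteasome subunit Psmb8 was at 4.74 and 5.94 RPKM in wild type and 0.191 and 0.103 in K754R (-3.17 ± 0.20, adjusted p = 0.00097). Psmb10, the subunit that replaces a constitutive one in the same particle, was at 41.6 and 38.2 in wild type and 10.998 and 9.13 in K754R (-1.94 ± 0.20, adjusted p = 0.00439). The MHC class I heavy chains H2-K1 (-1.71 ± 0.17) and H2-D1 (-1.71 ± 0.17) and the peptide transporter subunit Tap2 (-1.45 ± 0.19) fell as well, while their partner B2m did not pass (-0.39 ± 0.14, adjusted p = 0.132). Bst2, which tethers virus particles, fell from 40.4 and 58.996 to 12.9 and 13.4 RPKM. The class I genes are closely related copies whose reads may be shared.

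Part of the list was also called lower in K754M against wild type, a comparison that shares the wild-type libraries. Gbp2 was at 2.43 and 1.65 RPKM in K754M, Psmb8 at 0.125 and 0.0449 and Igtp at 0.652 and 0.516. K754M against wild type called 10 of the 34 lower, where 0.383% of all tested genes were called lower, and Irf1 (14.8 and 14.6 RPKM) and Ifitm3 (19.4 and 15.4) were not among them. Between the substitutions, without the wild-type libraries, 4 of the 34 were lower in K754R: Gbp2 (-1.23 ± 0.23, adjusted p = 0.0363), Ifitm3 (-1.398 ± 0.16), Irf1 (-1.36 ± 0.15) and Bst2 (-0.89 ± 0.18). In the stem cells, 0 of 31 tested members of the list were called. Members differed in level there: H2-K1 was at 27.9 and 17.9 RPKM in wild type and 15.1 and 10.7 in K754R, and Irf1 at 10.7 and 9.25 in wild type and 9.63 and 7.35 in K754R. Low levels were those of Gbp2, at 0 and 0.1097 in wild type and 0.03303 and 0.757 in K754R, and Psmb8 at 0.132 and 0.134 in wild type and 0.162 and 0.461 in K754R.

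**Figure D2:**
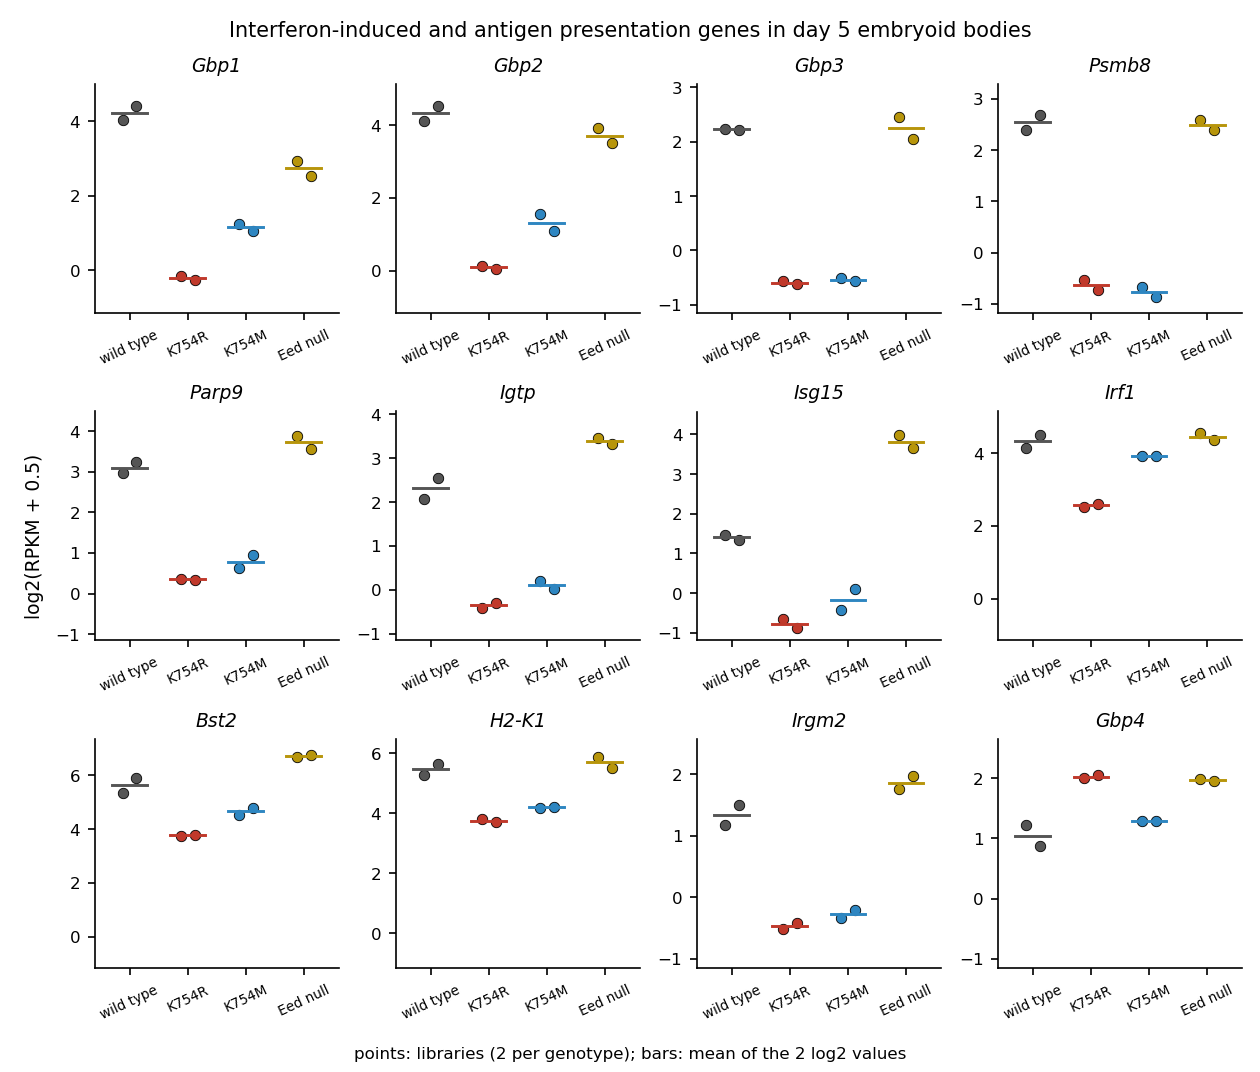
Interferon-induced and antigen presentation genes as log2(RPKM + 0.5) in each embryoid body library by genotype, with the mean of the 2 libraries as a bar. The K754R libraries of 11 genes lie below both wild-type libraries, those of Gbp4 lie above them, and K754M lies near K754R for Psmb8 and Gbp3.

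Part of the pluripotency genes were lower in K754R than in wild type. Pou5f1 (Oct4) and Nanog are the transcription factors that hold the pluripotent state, and their RNA normally declines as embryoid bodies differentiate. Of 14 core pluripotency genes 8 fell and 0 rose (median log2 change -1.26). Without K754R replicate 1, K754R replicate 2, wild-type replicate 1 or wild-type replicate 2, 6, 4, 7 or 4 genes fell, and 4 held: Pou5f1, Nanog, Tdgf1 and L1td1.

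Pou5f1 was at 47.9 and 50.2 RPKM in the wild-type libraries and at 5.61 and 3.44 in the K754R libraries. Nanog was at 36.7 and 58.97 in wild type and 6.39 and 5.39 in K754R. Neither gene's genotypes overlapped, with log2 changes of -3.34 ± 0.19 (adjusted p = 0.00063) and -2.89 ± 0.21 (adjusted p = 0.00136). K754M stayed near wild type, at 51.5 and 52.3 for Pou5f1 and 58.7 and 62.1 for Nanog, and the substitutions differed directly (-3.42 ± 0.19, adjusted p = 0.00101, and -3.26 ± 0.21, adjusted p = 0.00154). Eed null embryoid bodies had the highest levels, 179 and 169 for Pou5f1 and 188 and 184 for Nanog.

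Tdgf1, the Nodal co-receptor Cripto, was at 135 and 174 RPKM in wild type and 24.8 and 22.8 in K754R (-2.66 ± 0.15, adjusted p = 0.000555). L1td1, an RNA-binding protein of stem cells, was at 16.5 and 15.5 in wild type and 2.303 and 1.54 in K754R (-2.79 ± 0.19, adjusted p = 0.00116). Both were clearly separated between genotypes. Dppa5a, Utf1, Dppa4 and Dppa2 also fell, by 2.30, 1.78, 1.38 and 1.14 on the log2 scale. Their calls were made in 2, 0, 2 and 1 of the 4 leave-out fits.

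The fall did not take in the whole network. Sox2, the partner of Pou5f1, was at 4.07 and 2.98 RPKM in wild type and 2.72 and 2.22 in K754R and did not pass (adjusted p = 0.358). Sall4, Lin28a, Trim71 and the de novo DNA methyltransferase Dnmt3b did not pass, with log2 changes of 0.02, 0.53, 0.23 and 0.11. Of 20 naive pluripotency genes 4 fell: Dppa3, a maternal factor that protects methylation, from 2.79 and 2.25 to 0.157 and 0.141 RPKM (-2.21 ± 0.18, held), and Zfp42, Prdm14 and Fbxo15, whose calls were each made in 1 leave-out fit. Esrrb was already low in wild type, at 0.252 and 0.407 RPKM, and Klf4 was at 1.08 and 1.198. The gene that rose, Pecam1, is also an endothelial marker.

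Stem cells of both genotypes were measured as well. In the stem cell table, which was normalised separately, Pou5f1 was at 280.3 and 299.6 RPKM in wild type and 286 and 299.8 in K754R, and Nanog at 486 and 683 in wild type and 514 and 537 in K754R. Neither passed there. In all, K754R stem cells differed from wild type at 34 of 21012 tested genes (0.162%), 16 higher (0.0761%) and 18 lower (0.0857%), and at 0 genes when any 1 of the 4 libraries was left out, where 3000 genes of the full fit had an unadjusted limma p below 0.05. Of the 34, 27 were tested in embryoid bodies. Pipox, Rhd, Pla2g10 and Coil were lower at both stages, Pipox and Coil being on chromosome 11 (in embryoid bodies Pipox centred -1.06, adjusted p = 0.0143, and Coil centred -0.32, adjusted p = 0.328). The calls in embryoid bodies did not hold: that of Pipox was made in 1 leave-out fit and those of Rhd, Pla2g10 and Coil in 0. AL772216.30 and AL772216.1 were higher in stem cells and lower in embryoid bodies. The remaining 21 were not called.

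Genes of the Mir302 microRNA cluster moved in the same direction in K754R. These genes were chosen after their values were seen. The table counts reads of the hairpin or its primary transcript, so mature microRNA was not measured. Mir302c was at 28.4 and 31.1 RPKM in wild type and 3.63 and 4.19 in K754R (-2.78 ± 0.13, adjusted p = 0.000468), and Mir302b at 26.5 and 26.9 in wild type and 2.86 and 5.99 in K754R (-2.54 ± 0.28, adjusted p = 0.00491). Mir302a fell from 32.2 and 30.2 to 7.67 and 5.97 (-2.12 ± 0.24, adjusted p = 0.00534). These calls held. The last genes of the cluster, Mir302d (12.7 and 11.02 against 6.42 and 2.88) and Mir367 (4.71 and 5.89 against 1.88 and 2.53), did not pass. No 3p sequence is given for Mir302a. The mature 3p products of the other genes are known to repress targets through the seed at bases 2 to 8 (capitals). They share a seed or shift it by a base, except that of miR-367. They are given from RefSeq for GRCm38.p6, plus strand, at chr3:127545275-127545297, chr3:127545406-127545427, chr3:127545665-127545687 and chr3:127545779-127545800.
miR-302b-3p: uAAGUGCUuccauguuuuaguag
miR-302c-3p: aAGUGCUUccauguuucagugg
miR-302d-3p: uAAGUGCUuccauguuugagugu
miR-367-3p: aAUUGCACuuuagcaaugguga
The seed AAGUGCU stood in miR-302b-3p and miR-302d-3p, AGUGCUU in miR-302c-3p and AUUGCAC in miR-367-3p.

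Primitive streak and early mesoderm genes formed the next group of falls. The primitive streak is where epiblast cells turn into mesoderm and endoderm under Wnt and Nodal signals. Of 26 tested genes 11 fell and 1 rose (median -0.28). Without K754R replicate 1, K754R replicate 2, wild-type replicate 1 or wild-type replicate 2, 5, 6, 9 or 6 genes fell, and 5 held: Msgn1, Mesp1, T, Fst and Apln.

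T (Brachyury), the transcription factor of the streak and notochord, was at 57.5 and 69.4 RPKM in wild type and 11.3 and 9.71 in K754R. Mesp1, which marks the first cardiac progenitors, was at 32.2 and 60.9 in wild type and 5.85 and 7.09 in K754R. Msgn1, a factor of presomitic mesoderm, was at 5.99 and 3.52 in wild type and 0.184 and 0 in K754R. Both K754R libraries were below both wild-type libraries for each gene, with log2 changes of -2.54 ± 0.16 (adjusted p = 0.00098), -2.69 ± 0.31 (adjusted p = 0.00528) and -3.13 ± 0.32 (adjusted p = 0.00432). The Activin antagonist Fst fell from 12.99 and 12.4 to 3.04 and 2.33 (-2.06 ± 0.16) and Apln, the ligand of the apelin receptor, from 4.304 and 3.57 to 0.376 and 0.863 (-2.02 ± 0.25). Evx1, Mixl1, Lefty2, Dll3, Fgf8 and Wnt3 fell by smaller amounts, and their calls were lost in 2 or more leave-out fits.

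Other streak genes did not follow. Eomes, a T-box factor that acts beside T, was at 20.4 and 17.9 RPKM in wild type and 18.03 and 22.03 in K754R (0.06 ± 0.23, adjusted p = 0.906). The log2 changes of Tbx6, Lhx1, Gsc and Foxa2 were -0.12, 0.14, 0.24 and 0.30, and none passed. Pdgfra, a receptor of paraxial mesoderm and mesenchyme, rose from 20.7 and 14.9 to 34.7 and 40.8 (1.08 ± 0.17, adjusted p = 0.014). Between the substitutions 11 of these 26 genes were lower in K754R and 0 were higher, against 1.90% and 1.72% of all tested genes. T was at 46.1 and 51.8 RPKM in K754M and differed directly (-2.17 ± 0.16, adjusted p = 0.00209).

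**Figure D3:**
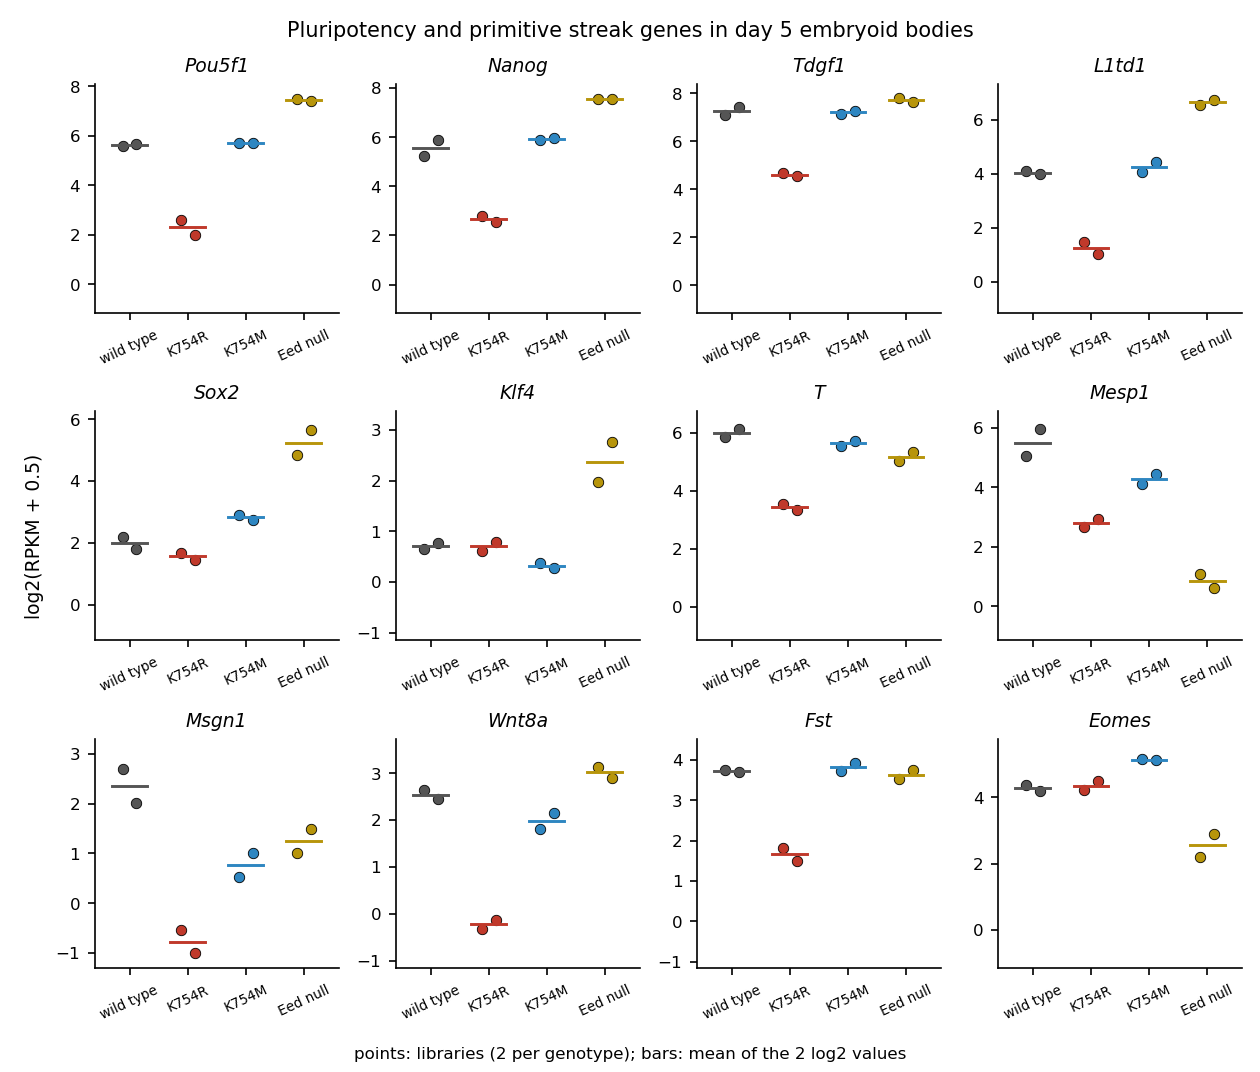
Pluripotency and primitive streak genes as log2(RPKM + 0.5) in each embryoid body library by genotype, with the mean of the 2 libraries as a bar. K754R lies below the other genotypes for Pou5f1, Nanog, Tdgf1 and L1td1, while for Klf4 and Eomes the K754R and wild-type libraries overlap.

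Among 31 Wnt ligands, inhibitors and targets 5 fell and 3 rose. The ligand Wnt8a was at 5.704 and 4.92 RPKM in wild type and 0.2999 and 0.413 in K754R (-2.76 ± 0.19, adjusted p = 0.00116), and the Wnt target Sp8 at 7.197 and 8.79 in wild type and 0.652 and 1.07 in K754R (-2.65 ± 0.27, adjusted p = 0.00432). Both calls held, with no overlap. The secreted Wnt inhibitors Sfrp1 (6.23 and 5.64 to 25.7 and 33.7, 2.22 ± 0.25, adjusted p = 0.00528) and Sfrp5 (0.418 and 0.591 to 2.81 and 2.88, 1.74 ± 0.17, adjusted p = 0.00391) rose and held. Wnt3 (chromosome 11, centred -0.72, adjusted p = 0.0361) and Sp5 fell and Wnt5a (chromosome 14, centred 0.57, adjusted p = 0.169) rose, calls that did not hold, while the target and feedback gene Axin2 and the ligand Wnt3a did not pass (-0.65 and -0.28).

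In the Nodal pathway, 4 of 21 genes fell (Tdgf1, Fst, Lefty2 and Gdf3) and 3 rose, with the transducers Smad3 and Smad2 among them. Nodal itself did not pass (0.23 ± 0.28, adjusted p = 0.636). In the BMP pathway, 6 of 25 rose and 0 fell: the ligand Bmp5 (0.95 ± 0.20), the receptor Bmpr2 (0.83 ± 0.19), the transducers Smad5 (0.83 ± 0.17) and Smad6, which is inhibitory (0.88 ± 0.13), and the targets Id2 (0.94 ± 0.14) and Msx1 (0.86 ± 0.15). No BMP call was made in more than 1 leave-out fit. Among 19 FGF genes Fgf5, Fgfr2 and Fgfr3 rose and Fgf4, Fgf8 and Etv4 (chromosome 11, centred -0.69, adjusted p = 0.0561) fell, and 0 of these calls held. Fgf5, a marker of primed epiblast, was at 9.95 and 5.66 RPKM in wild type and 20.1 and 23.4 in K754R (1.47 ± 0.30, adjusted p = 0.0275), close to the 18.8 and 22.3 of K754M.

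Xist had the largest rise. Xist is the long RNA that coats and silences an X chromosome in female cells. It was at 0.149 and 0.366 RPKM in wild type, 0.257 and 0.354 in K754M and 27.5 and 35.7 in K754R. The 2 K754R libraries stood apart from the other 6, whose highest value was 0.904 in Eed null (log2 change 5.41 ± 0.24, adjusted p = 0.000468). In the stem cells it was at 2.07 and 1.88 in wild type and 2.505 and 2.701 in K754R and did not pass. Its antisense partner Tsix was listed at 0.405 and 0.463 in wild type and 0.259 and 0.718 in K754R, and since no source says whether counting used strand, reads of the overlap cannot be told apart.

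The K754R libraries with Xist also held RNA of the Y chromosome. Eif2s3y was at 15.2 and 16.4 RPKM against 24.7 and 25.1 in wild type (-0.64 ± 0.10, adjusted p = 0.014) and Ddx3y at 11.2 and 10.6 against 16.7 and 16.7 (-0.59 ± 0.14, adjusted p = 0.0462). Both fell, but the call of Eif2s3y was made in 1 and that of Ddx3y in 0 of the 4 leave-out fits. Uty (7.78 and 9.02 against 9.54 and 9.73) and Kdm5d (0.981 and 0.903 against 0.441 and 0.359) did not pass. K754M lay below both genotypes for Eif2s3y (5.65 and 5.72), Ddx3y (7.01 and 5.54) and Kdm5d (0.0399 and 0.0112). On the X chromosome 68 of 790 tested genes rose in K754R (8.61%) and 30 fell (3.80%), with a median log2 change of 0.11. In K754R stem cells the X median was 0.30, about that of chromosome 14 there (0.29). The centring above covered autosomes only.

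Imprinted genes, which are expressed from the copy of 1 parent, included Grb10 and Igf2 among the 15 largest rises. The list, with Xist in it, had 48 tested genes, of which 13 rose and 4 fell (median 0.25). Without K754R replicate 1, K754R replicate 2, wild-type replicate 1 or wild-type replicate 2, 6, 6, 10 or 8 genes rose, and 6 held: Xist, Grb10, Igf2, Cdkn1c, Airn and Igf2r. The parental copy was not measured.

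Igf2, a fetal growth factor, was at 11.3 and 9.03 RPKM in wild type and 65.6 and 59.5 in K754R (2.57 ± 0.13, adjusted p = 0.000468). Its receptor Igf2r, which removes Igf2, was at 12.9 and 15.7 in wild type and 41.5 and 40.98 in K754R (1.504 ± 0.13, adjusted p = 0.00245). Both were higher in K754R without overlap, while H19, the RNA that shares an imprinting centre with Igf2, did not pass (-0.08 ± 0.21, adjusted p = 0.85). Airn, the long RNA antisense to Igf2r, rose from 1.46 and 1.08 to 5.499 and 6.08 (1.84 ± 0.17), and reads of the overlap with Igf2r cannot be told apart without strand.

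Grb10, an adaptor that restrains insulin and growth factor receptors, was at 4.37 and 3.51 RPKM in wild type and 37.4 and 44.01 in K754R. K754M lay below both, at 1.402 and 1.38, so the substitutions differed by 4.44 ± 0.16 (adjusted p = 0.000192). Grb10 lies on chromosome 11, whose median was lower, and it rose by 3.22 ± 0.16 (adjusted p = 0.000468; centred 3.52). Cdkn1c, an inhibitor of cyclin-dependent kinases, went from 2.37 and 1.99 to 11.2 and 11.3 (2.14 ± 0.19, adjusted p = 0.00313). It was far higher still in Eed null, at 155 and 135. Mest, Nnat, Impact, Usp29, Peg3, Blcap and Dcn rose by 0.67 to 1.19 on the log2 scale, and their calls did not hold. Sfmbt2, Phlda2, Zrsr1 (chromosome 11, centred -0.39, adjusted p = 0.134) and Snrpn fell, and none of these held.

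Cardiac and lateral mesoderm genes rose more often than they fell. Of 27 tested genes 9 rose and 1 fell (median 0.55). Tbx20, a cardiac T-box factor, was at 13.8 and 16.4 RPKM in wild type and 34.5 and 41.4 in K754R (1.298 ± 0.15, adjusted p = 0.00539), and Hand2, a factor of the heart and limb, at 9.36 and 5.66 in wild type and 19.4 and 22.5 in K754R (1.46 ± 0.22, adjusted p = 0.0114). The genotypes did not overlap. The troponins Tnni1 (1.796 and 1.01 to 7.04 and 6.89) and Tnnt2 (0.0582 and 0.0571 to 1.56 and 0.773) rose by 2.003 ± 0.23 and 1.54 ± 0.28. Myl7, the atrial myosin light chain, went the other way, from 21.1 and 26.97 to 4.83 and 5.51 (-2.105 ± 0.24, adjusted p = 0.00517; chromosome 11, centred -1.803), and it alone of the list held. Hand1, Isl1, Bmp4 and Nkx2-5 did not pass. Without K754R replicate 1, K754R replicate 2, wild-type replicate 1 or wild-type replicate 2, 1, 2, 8 or 3 genes of the list rose.

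Of 26 blood and endothelium genes 6 rose and 0 fell, and those that rose belong to endothelium. The rises numbered 2, 2, 8 and 3 when K754R replicates 1 and 2 and wild-type replicates 1 and 2 were left out in turn. Tek, the angiopoietin receptor, was at 0.643 and 0.521 RPKM in wild type and 4.83 and 4.34 in K754R (2.23 ± 0.18, adjusted p = 0.00197). Tie1, its co-receptor, was at 0.143 and 0.0382 in wild type and 1.63 and 1.63 in K754R (1.85 ± 0.17, adjusted p = 0.00343). Both held, with no overlap. The Tek ligand Angpt1, outside the list, rose from 0.0896 and 0.06599 to 2.83 and 2.12 (2.35 ± 0.24, adjusted p = 0.0043). The endothelial cadherin Cdh5, Fli1, Pecam1 and Esam rose by 1.77, 1.92, 1.28 (chromosome 11, centred 1.58) and 0.87, calls that did not hold. Over the list the median log2 change against wild type was 0.54 in K754R and 0.48 in K754M. Between the substitutions 2 of the 26 were higher and 1 lower in K754R. The early blood genes Etv2, Tal1, Gata1 and the embryonic globin Hbb-bh1 did not pass, and Hbb-bh1 differed widely between the wild-type libraries (17.5 and 1.63).

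Part of the extracellular matrix genes rose. Of 28 tested genes 12 rose and 0 fell (median 0.68). Without K754R replicate 1, K754R replicate 2, wild-type replicate 1 or wild-type replicate 2, 4, 3, 10 or 5 genes rose, and Postn and Fbn2 held. Postn, a matricellular protein, was at 0.497 and 0.1802 RPKM in wild type and 12.2 and 6.99 in K754R (3.56 ± 0.35, adjusted p = 0.00391). Vcan, a large proteoglycan of embryonic mesenchyme and heart, was at 11.9 and 6.82 in wild type and 38.3 and 41.6 in K754R (2.08 ± 0.25, adjusted p = 0.00588). Each K754R value was above each wild-type value. The fibrillins Fbn1 (1.74 ± 0.24) and Fbn2 (1.74 ± 0.19) and the fibrillar collagen genes Col3a1 (2.36 ± 0.30), Col5a2 (1.52 ± 0.24), Col5a1 (1.32 ± 0.21) and Col1a1 (0.92 ± 0.20; chromosome 11, centred 1.22) rose too. Fibronectin (Fn1) did not pass (-0.36).

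Of 25 mesenchyme and smooth muscle genes 9 rose and 3 fell. Over the list the median log2 change against wild type was 0.32 in K754R and 0.71 in K754M. Between the substitutions 3 of the 25 were higher and 5 lower in K754R. The smooth muscle actin Acta2 was at 3.74 and 2.25 RPKM in wild type and 33.1 and 18.97 in K754R (2.91 ± 0.33, adjusted p = 0.00528), and was also high in K754M (20.9 and 14.3). Twist2 (2.13 and 1.24 to 10.3 and 10.2) and the growth factor receptor Pdgfrb (1.57 and 1.36 to 6.32 and 6.43) rose by 2.32 ± 0.23 and 1.81 ± 0.17 and held. Snai2, a factor of mesenchymal transition, rose by 2.31 ± 0.34, in 1 leave-out fit. Calponin (Cnn1, -2.01 ± 0.39), S100a6 (-1.69 ± 0.28) and desmin (Des, -0.80 ± 0.17) fell.

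Markers of fibroblasts, the feeder cells of the stem cell cultures, overlap these lists and moved with them. Of 17 tested markers 10 rose and 0 fell, and 4, 4, 6 and 4 rose with the same libraries left out in turn (K754R replicates 1 and 2, then wild-type replicates 1 and 2). Their summed RPKM was 96.9 and 76.6 in wild type, 194 and 189.9 in K754R and 154 and 145 in K754M. In the stem cells it was 287 and 335 in wild type and 331 and 1059.9 in K754R. None of the defining markers was at 0: Col1a2 was at 0.465 and 0.482 RPKM in wild type and 0.708 and 0.685 in K754R, and Thy1 at 0.476 and 0.756 in wild type and 0.281 and 0.252 in K754R, and neither passed. The part of fibroblasts in the matrix and mesenchyme results was not tested.

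**Figure D4:**
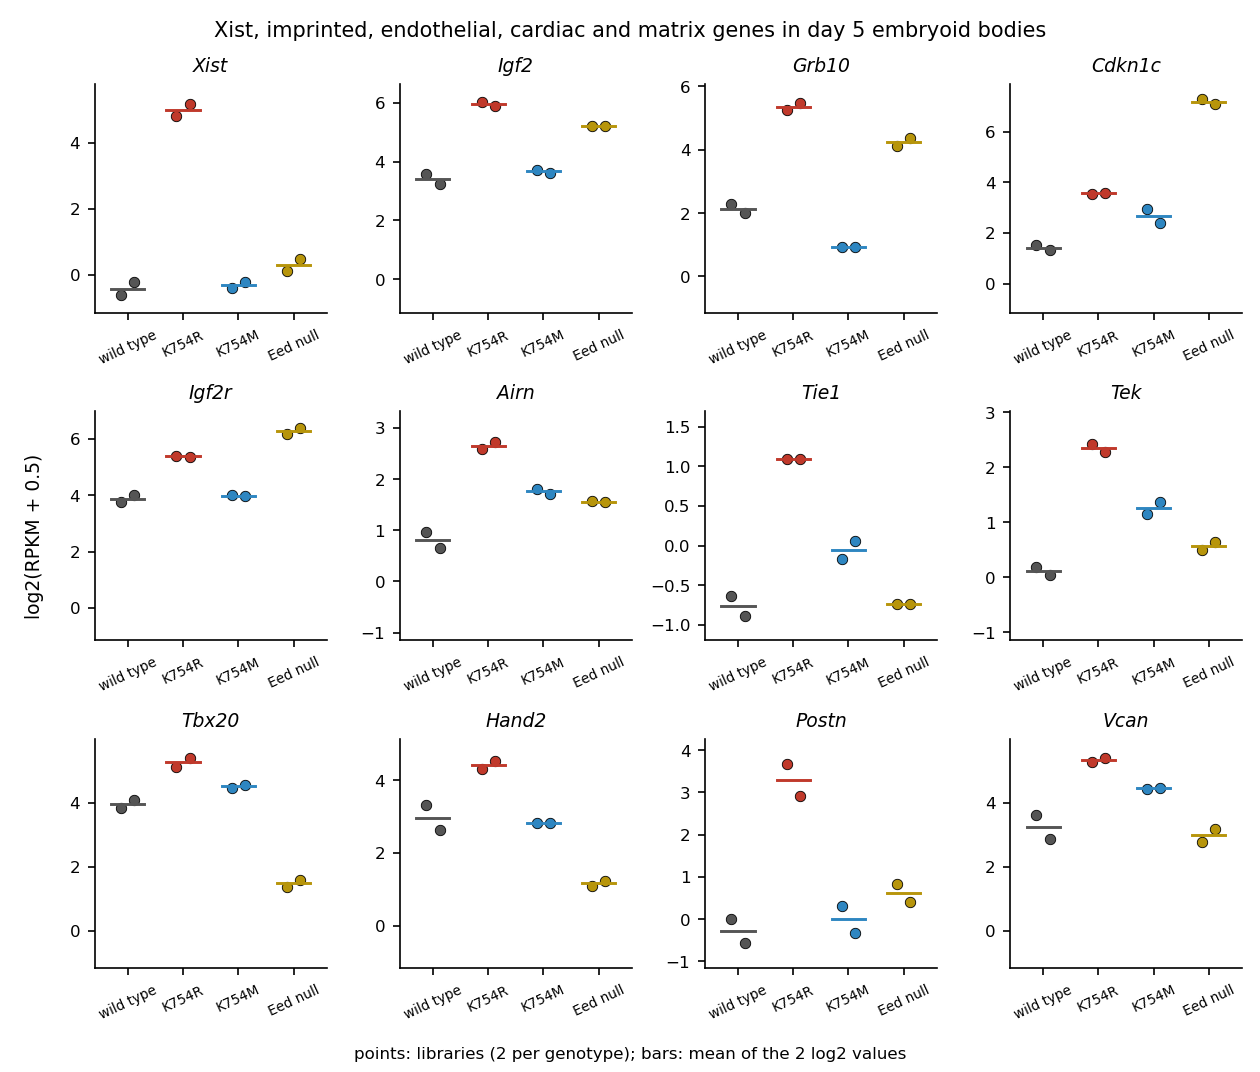
Xist, imprinted, endothelial, cardiac and matrix genes as log2(RPKM + 0.5) in each embryoid body library by genotype, with the mean of the 2 libraries as a bar. Both K754R libraries lie above both wild-type libraries in every panel, and K754M lies near wild type for Xist, Igf2, Igf2r, Hand2 and Postn.

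The 15 largest rises and 15 largest falls also held genes outside these groups. Igfbp3, a secreted protein that binds insulin-like growth factors, was at 30.4 and 32.9 RPKM in wild type and 2.43 and 2.22 in K754R (-3.51 ± 0.18, adjusted p = 0.000468; chromosome 11, centred -3.21). Alox15, a lipoxygenase, was at 8.85 and 8.11 in wild type and 0.313 and 0.354 in K754R (-3.43 ± 0.23, adjusted p = 0.00116; chromosome 11, centred -3.13). Both falls held, and both genes were also lower than in K754M (-2.501 ± 0.18 and -2.33 ± 0.23). The metallothionein Mt2 fell from 127 and 539 to 31.5 and 40.9, in 1 leave-out fit. Among the rises, Colec11, a collectin, went from 0.922 and 0.0679 to 10.8 and 8.01 (3.45 ± 0.47, adjusted p = 0.0083), called in 2 leave-out fits. Tgfbi, a matrix protein induced by TGF-beta, went from 0.497 and 0.368 to 6.06 and 4.25 (2.59 ± 0.25, adjusted p = 0.00376), and the adhesion molecule Flrt2 from 1.36 and 0.624 to 7.76 and 6.57 (2.403 ± 0.26, adjusted p = 0.00491). Ednrb, the endothelin receptor of neural crest, rose by 2.31 ± 0.22 (chromosome 14, centred 2.01). These last rises held, as did those of the near-identical copies Ctla2a (2.61 ± 0.18) and Ctla2b (2.45 ± 0.23), whose reads may be shared.

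Most developmental regulators held by Polycomb in stem cells did not pass. Of 54 tested, 8 rose (14.8%, against 4.82% of all tested genes) and 4 fell (7.41%, against 4.85%), with a median of 0.12. Tbx15 rose from 0.212 and 0.142 to 1.45 and 1.62 RPKM (1.59 ± 0.17, adjusted p = 0.00488) and held, while Pitx1 (0.227 and 0.141 to 3.598 and 2.83, 2.44 ± 0.32), a hindlimb and pituitary factor, and Foxf2 did not hold. T, Evx1, Dlx3 (chromosome 11, centred -0.56, adjusted p = 0.106) and Sim1 fell, and of these T held. Of 32 Hox and Cdx genes Hoxb4, Hoxb6 and Hoxd8 rose and Hoxb1 fell, each called in at most 2 leave-out fits. The Hoxb genes lie on chromosome 11, and centred the changes were 1.43 for Hoxb4, 2.08 for Hoxb6 and -0.74 for Hoxb1, whose call was lost (adjusted p = 0.128). Among 12 PRC2 genes Suz12 (33.6 and 42.3 to 16.5 and 19.6 RPKM, -1.05 ± 0.23; chromosome 11, centred -0.75) and Eed (49.6 and 55.3 to 40.1 and 38.03, -0.42 ± 0.10, adjusted p = 0.0478) fell, but neither was called when any 1 library was left out. Eed null embryoid bodies differed from K754R at 34.0% of tested genes, with 2630 genes higher and 3940 lower in K754R (6570 in all, and 4074 without K754R replicate 2). That split depended on scaling: it was 3923 and 3023 with each library shifted to the same median.

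**Figure D5:**
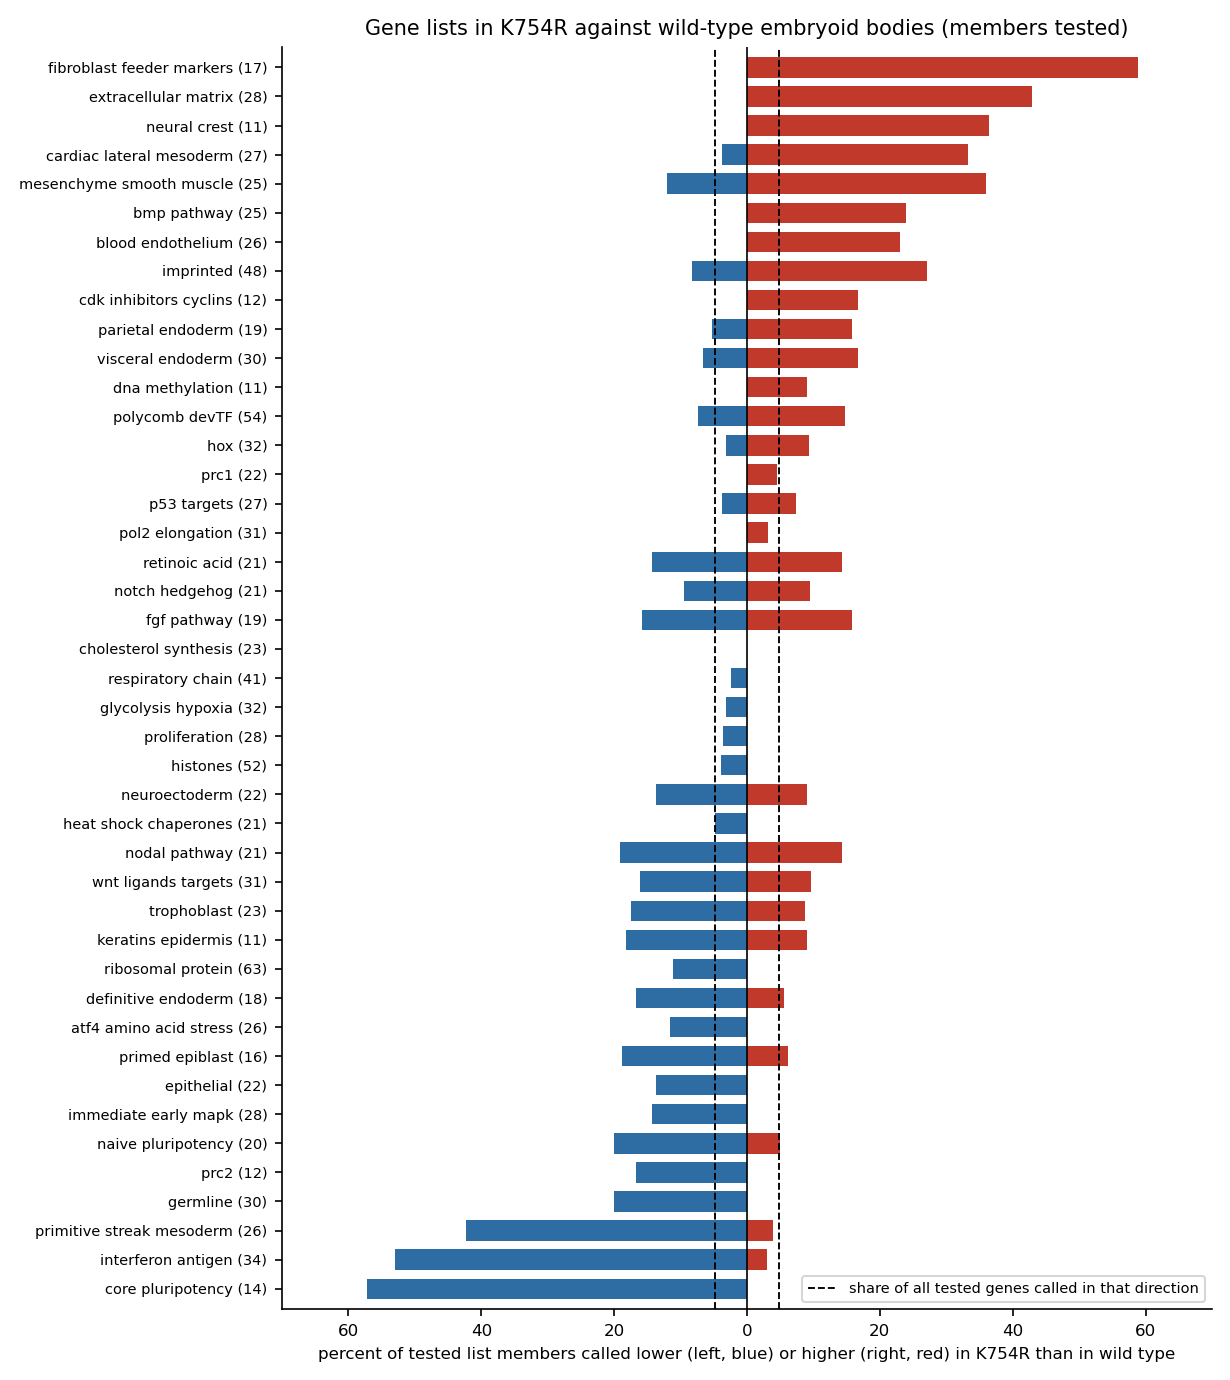
Percent of tested members called lower (left) or higher (right) in K754R for each gene list with more than 10 tested members, with the number tested in brackets. Dashed lines mark the share of all tested genes called in that direction, 4.82% higher and 4.85% lower.

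A direct test set K754R against K754M, which carries another residue at the same lysine. It called 698 genes (3.62%), 331 higher and 367 lower in K754R, but 64, 30, 21 and 37 without K754R replicates 1 and 2 and K754M replicates 1 and 2. K754M and K754R share the wild-type libraries, and the genes were chosen on the K754R change, so the changes are set side by side only: over the 931 rises the median log2 change was 0.91 in K754R and 0.30 in K754M, and over the 937 falls it was -1.005 and -0.45. K754M itself had 109 calls against wild type (0.565%).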

How the data were processed

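Total RNA depleted of ribosomal RNA was sequenced, per the labels' protocols. The authors deposited 1 RPKM value per gene and library, in 1 table per stage. CASAVA 1.7, STAR and the mm9 build stand in the submitters' processing notes, with no role. How genes were counted, from which annotation and whether by strand is not given in the sources used here. Depth was estimated from the RPKM step that 1 read makes.

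Values were analysed as log2(RPKM + 0.5), which understates changes of low genes. Genes with 0.25 RPKM in at least 2 of the 8 CJ7 libraries of a stage were tested with limma-trend (limma 3.58.1, R 4.3.3). The 4 genotypes shared 1 estimate of spread, with 2 libraries each and 4 residual degrees of freedom, and p-values were adjusted by Benjamini-Hochberg over all tested genes. Log2 changes are ± the standard error. Python 3.11.15 with pandas 2.3.3 and matplotlib 3.10.9 made the summaries and plots. TMM factors, for an alternative scaling, were computed directly from their formula. The test was checked on simulated data. The alternatives tried are in the closing section. GENCODE M21 gave chromosomes and spans, joined by identifier (18056 of 19300 tested genes). Named genes were Tceb3 and Eed and the 15 largest rises and falls (called, not overlapping, 2 RPKM in the higher group, no small RNA, pseudogene or predicted gene). They also took in every called member of each of 46 lists, defining markers, and every member of lists with 10 or fewer tested. The Mir302 cluster, Tsix, the Y chromosome genes, Rhd, Pipox, Pla2g10 and Coil were added after their values were seen. The members and lists were chosen with earlier results of these data known. Some genes are not reported here. In 4 columns of CCE embryoid bodies, labels contradict each other, and they were not used.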

Additional observations from a re-analysis of the deposited data

How the results depend on the processing

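Against wild type, 1868 genes were called in embryoid bodies. The count was 1199 without the filter on low values and 824 with a minimum of 2-fold. It ranged from 177 to 1249 when 1 library was left out. It ranged from 1371 to 2622 over the other settings: pseudocounts 0.1 and 1, a filter at 1 RPKM, only 4 libraries, median or TMM scaling, and 3 chosen after seeing the data (without chromosomes 11 and 14, autosomes centred, without Eed null). Against K754M, 698 calls became 425 without the filter and 1140 in the fit of 4 libraries, and ranged from 21 to 64 with 1 library left out. Against Eed null, 6570 calls ranged from 4074 to 5546 with 1 left out. With autosomes centred there were 6771 calls, 3652 higher and 3119 lower. In stem cells, 34 calls became 14 without the filter, 0 in the limma fit of 4 libraries, 20 with autosomes centred and 0 with any 1 library left out. Over the 46 lists, 200 calls became 131 without the filter and ranged from 55 to 157 with 1 library left out. Of the 212 to 251 named genes that each setting could test, 0 reversed, but 153 and 149 calls were lost without K754R replicates 1 and 2, 75 and 137 without wild-type replicates 1 and 2, 73 without the filter and 45 with autosomes centred. The cause of these differences was not tested. Some of the named genes were not called in the main fit and had no call to lose. With 2 libraries per genotype, small changes were not detectable.

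The labels number the replicates. Deviations of same-numbered K754R and wild-type libraries correlated at 0.17, over 2 numbers only, so the libraries share a number and no known pairing. With a replicate block the calls were 2950 against wild type, 1099 against K754M and 2 in stem cells.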

Other observations

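Ribosomal protein genes, which are among the most abundant RNAs, had a median log2 change of -0.39 in K754R. Of 63, 7 were lower (11.1%, against 4.85% of all tested genes) and 0 higher (against 4.82%), and none of these calls held. Rpl22 was at 387 and 402 RPKM in wild type and 197 and 166 in K754R (-1.12 ± 0.17, limma adjusted p = 0.0123). The summed RPKM of these genes was 52556 and 57532 in wild type and 45554 and 37863 in K754R. It also differed between the 2 Eed null libraries (56507 and 37621). With autosomes centred, 1 of the 63 was called lower. Of 381 small nucleolar RNAs 41 fell (10.8%, against 4.85% of all tested genes) and 7 rose (1.84%, against 4.82%). Snhg1 and Gas5, host genes of such RNAs, fell by 1.13 and 0.77 on the log2 scale. Germline genes had 6 falls (20%, against 4.85%) and 0 rises among 30. The falls were led by Ddx4, an RNA helicase of germ cells (1.23 and 2.19 to 0.135 and 0.0994 RPKM), and Tex19.1 (2.54 and 2.03 to 0.413 and 0.306), whose call held. Of 30 visceral endoderm genes, Apob, Apom, Apoa4, Hnf4a and Gata4 rose (16.7%, against 4.82% of all tested genes). Afp and Rbp4 fell (6.67%, against 4.85%). None of these calls held: each was made in at most 1 leave-out fit, and centred Gata4 (chromosome 14, centred 0.51, adjusted p = 0.105) and Apoa4 (adjusted p = 0.0866) were not called.

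Glycolysis and hypoxia genes had a median log2 change of -0.93 with only 1 of 32 called (Eno1). Their median was -0.80 in K754M against wild type and -0.07 for K754R against K754M. Their summed RPKM differed between the wild-type libraries, 4669.5 and 7845, against 3396 and 4330.2 in K754R. Rises and falls also differed by gene span, the distance from start to end of a gene. Over all tested protein-coding genes 5.87% rose and 5.29% fell. In the fifth of protein-coding genes with the longest span (median 122.2 kb) 322 of 2795 rose (11.5%) and 72 fell (2.58%), with a median log2 change of 0.16. In the shortest (median 4.24 kb) 94 of 2796 rose (3.36%) and 212 fell (7.58%), with -0.08. Between the 2 K754R libraries the longest genes differed by a median of -0.14, replicate 1 minus replicate 2. What this order by span reflects was not tested.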
